A study of Homo sapiens with 6 samples.

Results

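The KANK proteins are adaptors at the rim of focal adhesions, and this account covers the 4 KANK genes with talin 1 (TLN1), liprin alpha 1 (PPFIA1) and liprin beta 1 (PPFIBP1) in bladder cancer cells given an androgen. The members are the probe sets that the array platform's annotation assigns to exactly 1 of these 7 genes, which came to 24 probe sets of 7 genes, of 49193 probe sets and 18129 singly named genes in all. No probe set listed a member together with another gene. UMUC3-c31 cells, a line named after the human bladder carcinoma line UMUC3, were kept for 24 h in serum stripped of steroids with charcoal. They then received ethanol vehicle (3 arrays) or the synthetic androgen R1881 at 10 nM (3 arrays), and total RNA was taken after 24 h. The design text calls the 3 samples of each condition biological replicates, and nothing used here says how c31 was derived. The genes were chosen by name, but with the measured differences between R1881 and vehicle known: KANK1 was selected on its rise and the others as its family and binding partners. Their differences and calls are therefore a description, with no test, and support nothing by themselves.

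A KANK protein binds the rod of talin, the protein that activates integrins and ties them to actin, through a short conserved stretch near its amino end called the KN motif. Its coiled coil binds liprin beta 1 and its ankyrin repeats bind the kinesin KIF21A. It thereby draws the complex that holds microtubule ends at the cell cortex towards adhesions. KANK proteins are also known to restrain actin stress fibres.

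The 250 bases before a RefSeq start of KANK1 and of KANK2 are shown because these were the members that rose and fell. For KANK1, the window shown is the only 1 of its 4 that held the hexamer marked here. They come from RefSeq on GRCh38.p14 and are written 5′ to 3′ on each gene's own strand, and capitals mark the hexamer AGAACA or its reverse complement TGTTCT, the arms of the consensus element of androgen and glucocorticoid receptors (AGAACA, any 3 bases, TGTTCT).
KANK1, chr9:706803-707052, plus strand: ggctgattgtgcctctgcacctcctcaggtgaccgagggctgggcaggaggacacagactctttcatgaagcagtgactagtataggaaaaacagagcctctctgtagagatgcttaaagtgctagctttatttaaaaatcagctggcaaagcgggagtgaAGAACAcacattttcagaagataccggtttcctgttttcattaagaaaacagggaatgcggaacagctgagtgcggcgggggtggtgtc
KANK2, chr19:11197546-11197795, minus strand: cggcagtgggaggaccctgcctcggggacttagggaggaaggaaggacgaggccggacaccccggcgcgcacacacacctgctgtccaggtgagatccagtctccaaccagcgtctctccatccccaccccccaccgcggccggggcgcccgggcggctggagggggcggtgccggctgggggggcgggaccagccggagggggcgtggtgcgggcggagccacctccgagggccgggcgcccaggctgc
RefSeq lists 4 KANK1 starts on chromosome 9, and the hexamer occurred in the window of the start farthest along the gene's strand, beginning 89 bases before that start. The other 3 KANK1 windows held 0 copies, as did the windows of KANK2, KANK3, KANK4, TLN1, PPFIA1 and PPFIBP1. Of 35116 RefSeq windows of this length 12.4% held the hexamer in either orientation. Counted by gene, where several windows give more places for a match, 14.8% of 27305 held it in at least 1 window. The full element occurred in 0 of the 10 member windows and in 1 of the 35116. These searches describe letters in the windows only, and the arrays do not show which KANK1 start was in use.

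KANK1 rose 3.01-fold with R1881 on its brighter probe set, KANK2 fell to 0.803 times its vehicle level on its brightest, and no other member passed the threshold. Values are on the log2 RMA scale, where a difference of 1 is a doubling. The threshold was an adjusted p of 0.05 in a limma fit over all 49193 probe sets, which called 1.54% of them (1.12% as higher and 0.427% as lower). Among the members 2 of 24 passed, and since the genes were chosen with this contrast known, nothing is read from that count. The 3 vehicle and 3 R1881 arrays did not overlap on 4 of the 24 probe sets, all of them of KANK1 or KANK2, where 16.8% of all probe sets showed this. The median difference over the 24 was 0.01, against 0 over all probe sets.

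KANK1 has 2 probe sets. On 11758652_s_at the vehicle arrays read 6.64, 6.55 and 6.40 and the R1881 arrays 8.12, 8.15 and 8.09. Every R1881 array thus lay well above every vehicle array, and the R1881 arrays were also closer to each other (SD 0.03, n = 3) than the vehicle arrays were (SD 0.12, n = 3). The means were 6.53 and 8.12, a difference of 1.59 ± 0.07 (SE), or a fold of 3.01 (95% confidence interval 2.69 to 3.37). With a single array left out the difference lay between 1.53 and 1.65, a description of the values on which the gene was chosen. The other probe set, 11731932_a_at, read 3.21, 3.23 and 3.59 in vehicle and 3.60, 3.71 and 3.89 with R1881. These values lie below the background level of 4.99, the 90th percentile of the means of 423 olfactory receptor and keratin-associated protein genes. The groups there were apart by the last decimal deposited, the difference of 0.39 ± 0.12 (SE) did not pass, and no fold is given for it. The KANK1 rise therefore rests on 1 probe set, whose identifier marks probes that match several transcripts. The mean of both sets, 1 of them below background, differed by 0.99.

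KANK2, which binds talin like KANK1 and is also known to hold steroid receptor coactivators in the cytoplasm, was lower by sign on all 3 of its probe sets. On the brightest, 11717871_s_at, the vehicle arrays read 8.55, 8.63 and 8.57 and the R1881 arrays 8.31, 8.26 and 8.23. The groups did not overlap and each had an SD of 0.04 (n = 3). The difference was -0.32 ± 0.05 (SE), or a fold of 0.803 (95% confidence interval 0.740 to 0.871). This call was lost in each of the 6 leave-outs of a single array, although the difference stayed between -0.34 and -0.29. It was also lost with the replicate number as a block in the fit. The mean of the 3 sets, at -0.20, did not pass either. On the set 11726538_x_at the vehicle arrays read 6.22, 6.51 and 6.51 and the R1881 arrays 6.05, 6.32 and 6.50, so the groups overlapped, and the difference was -0.12 ± 0.13 (SE). On 11726537_a_at the values were 5.13, 5.12 and 5.18 in vehicle and 4.82, 5.03 and 5.11 with R1881, close to the background level. The groups were apart there, but the difference of -0.16 ± 0.08 (SE) did not pass.

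**Figure D1:**
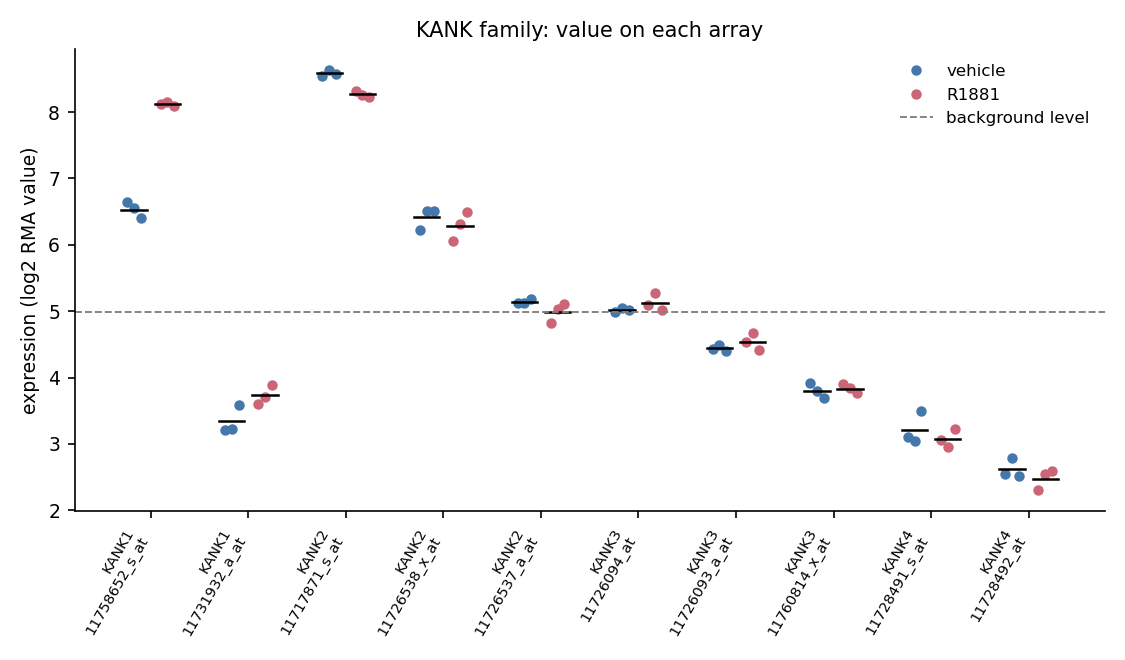
Expression (log2 RMA value, vertical axis) of the 10 KANK probe sets on each of 6 arrays, with vehicle in blue, R1881 in red, black bars at group means of 3 arrays and a dashed line at the background level of 4.99. KANK1 on 11758652_s_at goes from 6.53 to 8.12 and KANK2 on 11717871_s_at from 8.58 to 8.27, while both KANK4 sets lie below the line.

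KANK3 lay just above the background level on 1 of its 3 probe sets and KANK4 on neither of its sets. KANK3, known mainly from endothelium, read 4.99, 5.05 and 5.02 in vehicle and 5.09, 5.27 and 5.01 with R1881 on its brightest probe set, 11726094_at. The groups overlapped, and the difference of 0.10 ± 0.07 (SE) did not pass. Its other 2 sets lay below background, with differences of 0.10 and 0.03. KANK4, a family member tied to kidney podocytes by inherited nephrotic syndrome, read 3.10, 3.04 and 3.49 in vehicle and 3.06, 2.95 and 3.22 with R1881 on 11728491_s_at, and 2.55, 2.79 and 2.51 against 2.30, 2.54 and 2.59 on 11728492_at. Both KANK4 sets lay below background in both groups, so a fall, or a rise that stays below the background level, would not be detectable here. Neither R1881 mean, at 3.08 and 2.48, reached that level.

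Talin 1, the integrin activator to which KANK proteins bind, has 2 probe sets, both above background. On 11743124_s_at the vehicle arrays read 7.42, 7.64 and 7.68 and the R1881 arrays 7.61, 7.74 and 7.64. The R1881 arrays fell within or just above the vehicle range, and the difference was 0.08 ± 0.08 (SE) with a 95% confidence interval of 0.930 to 1.21 in fold. On 11743123_a_at the values were 6.42, 6.60 and 6.47 in vehicle and 6.42, 6.33 and 6.80 with R1881, a difference of 0.02 ± 0.12 (SE). R1881 replicate 3 was the highest and R1881 replicate 2 the lowest of the 6 arrays there.

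PPFIA1 encodes liprin alpha 1, a scaffold of the cortical microtubule complex that also affects focal adhesion turnover. Its 6 probe sets all lay above background, with differences from -0.16 to 0.06 and a median of 0.01. The brightest, 11717878_x_at, read 9.50, 9.48 and 9.41 in vehicle and 9.50, 9.46 and 9.47 with R1881. The groups overlapped fully, and the fold was 1.01 with a 95% confidence interval of 0.932 to 1.09. The widest departure was on 11717876_a_at, with 6.54, 6.76 and 6.78 in vehicle and 6.52, 6.53 and 6.56 with R1881, where vehicle replicate 1 lay among the R1881 arrays and the difference of -0.16 ± 0.07 (SE) did not pass.

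PPFIBP1 encodes liprin beta 1, the partner that the KANK1 coiled coil binds. Of its 6 probe sets 5 lay above background, and the differences ran from -0.12 to 0.08. The brightest, 11734874_x_at, read 8.07, 8.21 and 8.29 in vehicle and 8.0, 8.06 and 8.16 with R1881. The groups overlapped, and the difference of -0.12 ± 0.07 (SE) did not pass. The 11734875_a_at set spread most, from 4.81 to 5.48 within vehicle (SD 0.36, n = 3), and its interval of 0.788 to 1.41 in fold was the widest of the talin and liprin sets.

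Talin 1 and the liprins together gave 14 probe sets, of which 0 passed in limma, 0 had an unadjusted p under 0.05 and 0 had groups apart. That they missed the threshold does not show that these genes did not change. Their intervals set the limit: on 14 of the 14 sets, 1 of them below background, the 95% confidence interval lay within a 1.5-fold change in either direction. Over all 24 member sets this held for 22, the exceptions being both KANK1 sets. For the 6 sets below background the limit applies to the signal and not to the RNA.

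**Figure D2:**
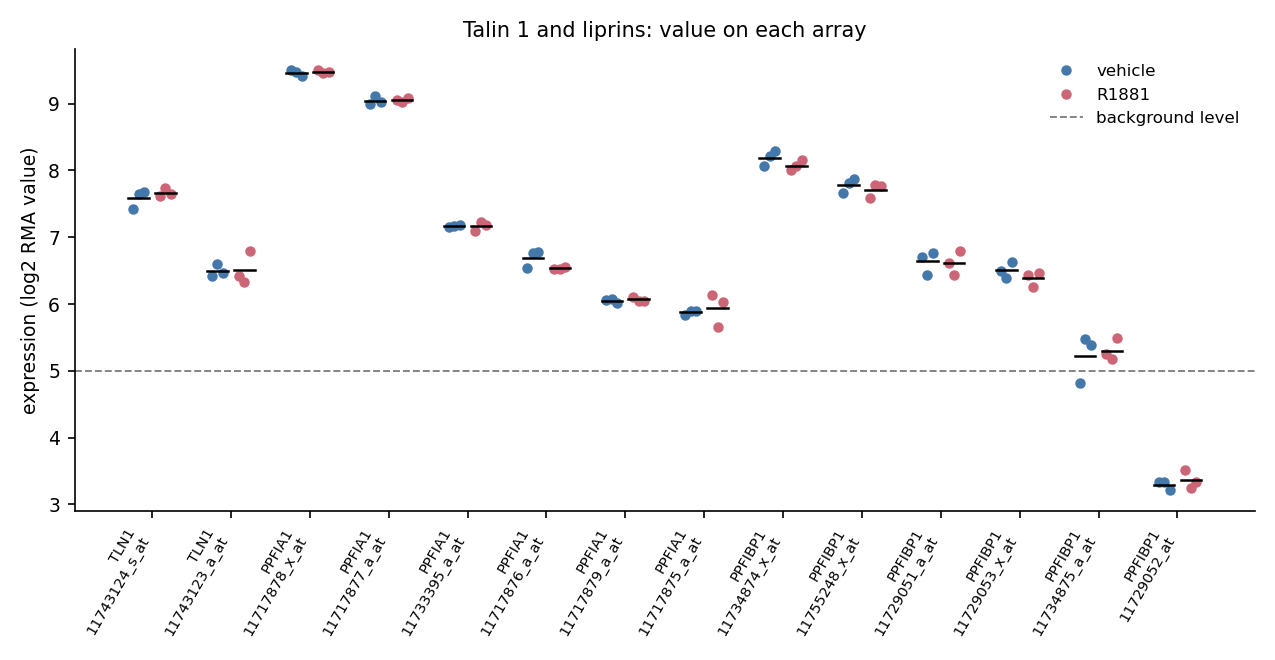
Expression (log2 RMA value, vertical axis) of the 14 probe sets of TLN1, PPFIA1 and PPFIBP1 on each of 6 arrays, with vehicle in blue, R1881 in red and black bars at group means of 3 arrays. On none of the 14 sets are the groups apart, where 16.8% of all probe sets showed this. The PPFIBP1 set 11729052_at lies below the dashed background line at 4.99.

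**Figure D3:**
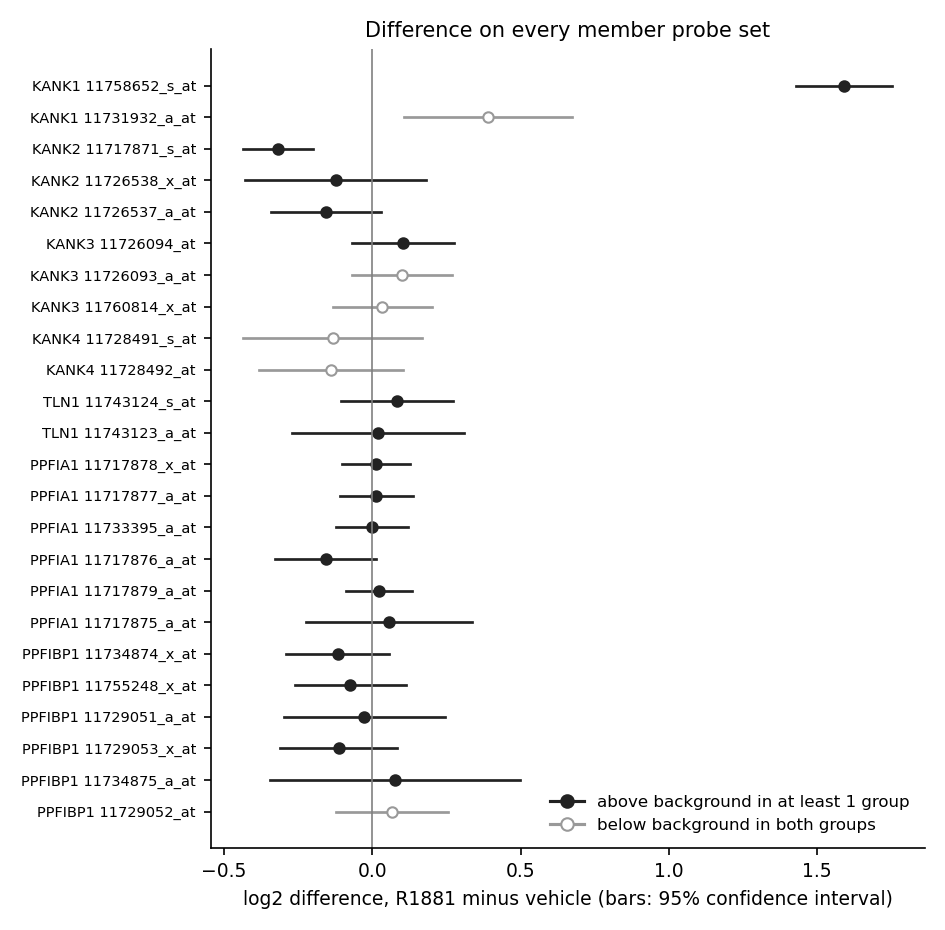
Log2 difference of R1881 minus vehicle (horizontal axis) for each of the 24 member probe sets, with bars for the 95% confidence interval of the moderated fit and open grey points for sets below background in both groups. KANK1 on 11758652_s_at stands at 1.59 and KANK2 on 11717871_s_at at -0.32, and the 14 talin and liprin sets lie between -0.16 and 0.08.

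The genes with values most like those of KANK1 over the 6 arrays were found by distance. Each gene's values on its brightest probe set were centred on their 6-array mean and compared with the centred values of KANK1 as a root mean square difference, which is small where both the size of the change and the scatter are alike. Placeholder symbols, such as those of unnamed loci and open reading frames, and microRNA, small RNA and antisense genes were left out of this ranking. Among the rest, the 5 closest genes above background were FKBP5 (0.107), SNAI2 (0.109), RIPK4 (0.126), EPAS1 (0.152) and P4HA3 (0.172), in log2 units over 6 arrays. FKBP5, a cochaperone of steroid receptors, read 8.58, 8.48 and 8.60 in vehicle and 10.07, 10.01 and 10.04 with R1881. SNAI2, the transcription factor Slug, read 5.97, 5.93 and 5.97, then 7.45, 7.41 and 7.60. All 5 genes differ from KANK1 by less than 0.2 on this measure, but they were selected as the closest. Their likeness to KANK1 therefore follows from the selection and supports nothing by itself.

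**Figure D4:**
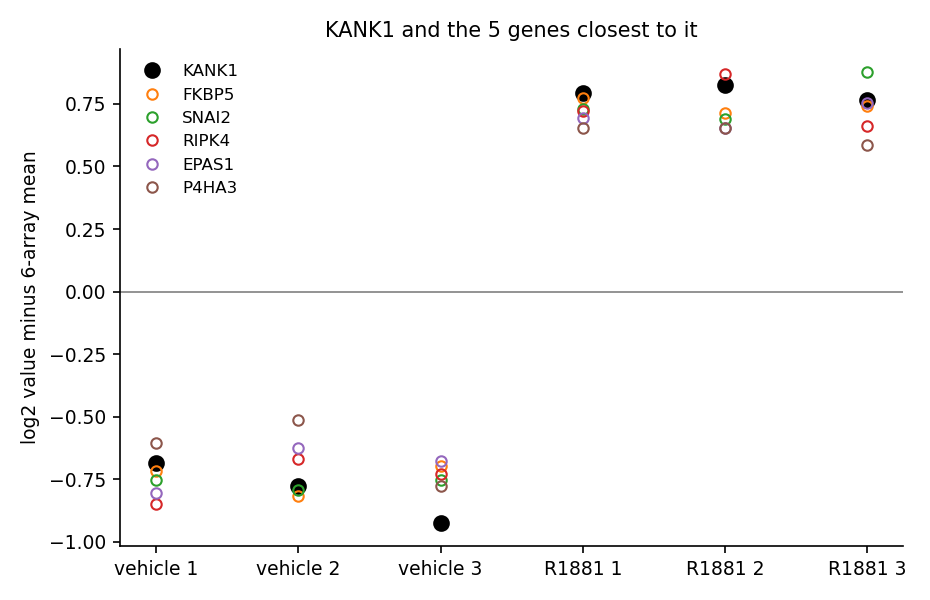
Log2 value minus the gene's 6-array mean (vertical axis) on each array for KANK1 (filled black) and the 5 genes closest to it (open circles). All 6 genes lie below 0 on the 3 vehicle arrays and above 0 on the 3 R1881 arrays, and the 5 were selected for this likeness.

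Around the members, 7 lists of adhesion and actin genes were written from general knowledge, but with earlier results of these data known. Their counts and shares are therefore a description and support nothing by themselves. The lists held 153 genes, of which 147 were measured and 123 lay above background. Of all 18129 genes 11049 did, so the lists and all genes are unlike in level and their shares called are given without a test. A gene was represented by its brightest probe set, and the limma fit over 18129 genes called 2.42% of them (1.6% as higher and 0.816% as lower). Of the 147 genes 7 rose, 2 fell and 138 did not pass, so 6.12% were called, with a median difference of 0.04 against 0 over all genes. The count was unstable: it was 4, 2 and 0 without vehicle replicates 1, 2 and 3 and 0, 1 and 0 without R1881 replicates 1, 2 and 3. Over all genes, 1.15% to 1.49% were called in these leave-outs. Under a trended, robust prior the count was 22, where 4.94% of all genes were called. With the replicate number as a block in the fit it was 1 (EVL), where 1.22% of all genes were called. In the 3 leave-outs where 0 passed in limma, 35 to 40 genes had an unadjusted p under 0.05, as 35 did with all arrays. With all arrays this was 23.8% of the list genes, against 14.3% of all genes.

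In 3 of the lists, those of the genes closest to KANK function, no gene was called, which at these list sizes is near the share over all genes and is not a result about them. An unadjusted p under 0.05 was found for 14.3% of all genes. Of 16 genes of the cortical microtubule complex 0 passed (1 at an unadjusted p under 0.05), and the lowest p belonged to CLASP1, which stabilises microtubule ends, at 0.14 ± 0.05 (SE). Of 12 genes of the liprin family and its binding partners 0 passed (1 unadjusted), with the receptor phosphatase gene PTPRS at 0.17 ± 0.05 (SE). Of 13 reported binding partners of KANK proteins 0 passed (2 unadjusted), with the 14-3-3 gene YWHAQ at -0.13 ± 0.04 (SE), which passed under the trended, robust prior (limma adjusted p = 0.0273). The list medians were 0.03, 0.04 and -0.04.

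Of 19 integrin subunits measured, 2 rose, 1 fell and 16 did not pass, with a median of -0.02, where 2.42% of all genes were called. ITGA6, the laminin receptor subunit alpha 6, read 11.55, 11.59 and 11.72 in vehicle and 11.17, 11.27 and 11.18 with R1881, a fall of -0.41 ± 0.06 (SE, limma adjusted p = 0.0163). ITGAV, the alpha subunit shared by several vitronectin and fibronectin receptors, read 9.78, 9.74 and 9.80, then 10.04, 10.00 and 10.02, a rise of 0.25 ± 0.04 (SE, limma adjusted p = 0.0318). ITGB5, a beta subunit that pairs with alpha V, read 8.86, 8.84 and 8.87, then 9.18, 9.11 and 9.08, a rise of 0.27 ± 0.05 (SE, limma adjusted p = 0.0318). On each of these 3 genes the vehicle and R1881 arrays were apart, as on 16.8% of all probe sets. The 3 were named for their calls on these same arrays, so this adds no support. Under the leave-outs of a single array ITGAV and ITGB5 lost their calls in all 6 (adjusted p up to 0.117 and 0.121), and ITGA6 in all but that of vehicle replicate 1 (up to 0.0868). On the brightest ITGAV set that is not of the s or x kind the difference was 0.11 and did not pass.

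Of 40 measured genes of integrin activation and the focal adhesion core, 1 rose, 1 fell and 38 did not pass, with a median of 0.04. These 2 genes encode related LIM scaffold proteins. PXN, which encodes paxillin, read 11.35, 11.52 and 11.49 in vehicle and 11.10 on all 3 R1881 arrays, a fall of -0.35 ± 0.06 (SE, limma adjusted p = 0.0226). TGFB1I1, which encodes the paxillin relative Hic-5, also known as an androgen receptor coactivator, read 9.19, 9.41 and 9.32, then 9.66, 9.69 and 9.73, a rise of 0.39 ± 0.06 (SE, limma adjusted p = 0.0285). PXN was lower by sign on 10 of 10 probe sets, from -0.36 to -0.02, and their mean of -0.17 did not pass. PXN kept its call in a single leave-out, that of vehicle replicate 1 (otherwise adjusted p up to 0.110), and TGFB1I1 in that of vehicle replicate 2 (otherwise up to 0.126).

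Of 26 measured genes of actin nucleation and elongation, 2 rose and 24 did not pass. EVL, an elongation factor of the Ena/VASP family, read 7.26, 7.42 and 7.33, then 7.69, 7.77 and 7.71, a rise of 0.39 ± 0.06 (SE, limma adjusted p = 0.0151). WASF3, an activator of the Arp2/3 complex, read 8.88, 8.79 and 8.68, then 9.16, 9.14 and 9.21, a rise of 0.39 ± 0.06 (SE, limma adjusted p = 0.0224). Both genes were higher by sign on all 3 of their probe sets, but for EVL the mean of the sets, at 0.38, did not pass (limma adjusted p = 0.0633). EVL kept its call without vehicle replicate 1 or 2 and WASF3 without vehicle replicate 1, and neither did in the other leave-outs (adjusted p up to 0.0844 and 0.108).

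Of 22 genes of the SRF, MRTF and YAP factors and their targets, which respond to actin tension, 2 rose and 20 did not pass, with a median of 0.06. CCN1, a secreted matrix protein, read 10.00, 10.04 and 10.06 in vehicle and 10.31, 10.27 and 10.33 with R1881, a rise of 0.27 ± 0.04 (SE, limma adjusted p = 0.0246). TPM2, a tropomyosin that wraps actin filaments, read 11.69, 11.85 and 11.81, then 12.09, 12.11 and 12.10, a rise of 0.32 ± 0.05 (SE, limma adjusted p = 0.0308). Both genes lost their call in all 6 leave-outs (adjusted p up to 0.0993 and 0.131).

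**Figure D5:**
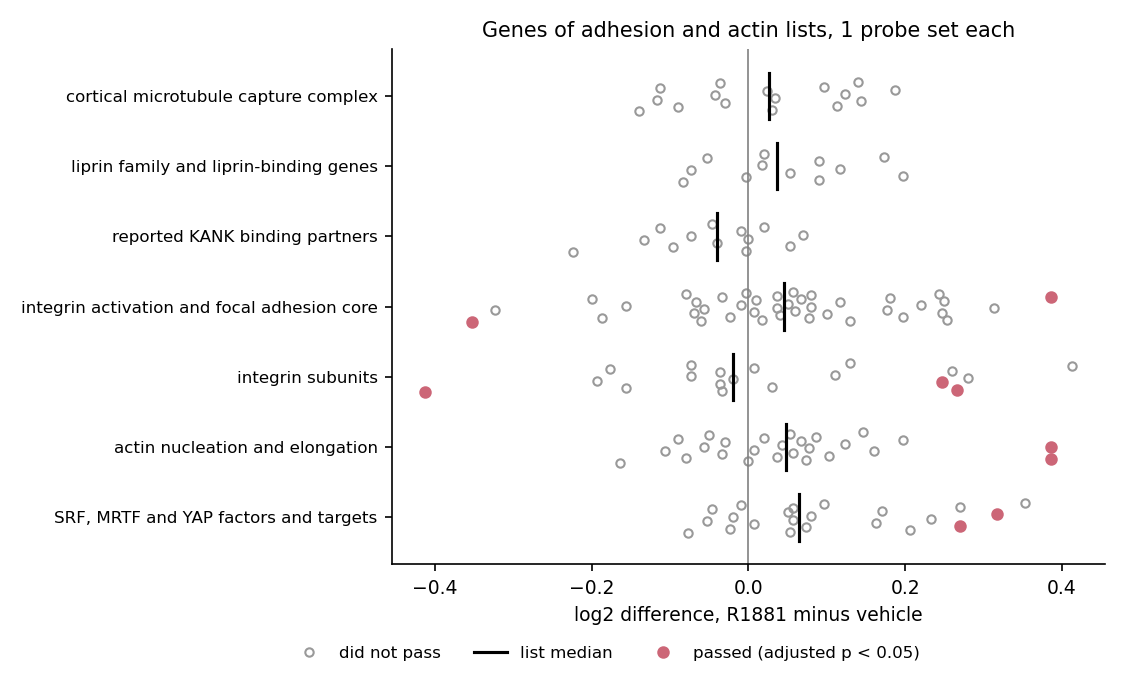
Log2 difference of R1881 minus vehicle (horizontal axis) for the measured genes of 7 adhesion and actin lists (rows), 1 probe set per gene, with filled red points for genes that passed and a black bar at each list's median. The 9 genes that passed lie between -0.41 and 0.39, and the 3 top rows hold none.

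As a check of the cell type, 2 of 5 epithelial markers lay above background, the keratin genes KRT18 (10.75 in vehicle) and KRT8 (7.91). KRT19, EPCAM and CDH1 lay below it. The 3 markers of mesenchymal-like carcinoma all lay above background: VIM (14.10 in vehicle), CD44 (12.60) and CDH2 (8.34). Of 8 urothelial markers 2 reached the background level in a group, UPK1A and GATA3, with no mean above 5.08, so these arrays do not show a urothelial marker pattern. Above background were 1 of 6 fibroblast, 1 of 4 endothelial and 3 of 3 smooth muscle markers, with no mean above 5.78, and 3 of 5 immune markers, of which CD68 stood at 8.93 in vehicle and PTPRC and LYZ below background. None of these markers passed in limma apart from KRT18, at -0.37, and CD44, at -0.28, and the part of other cells in the results was not tested. Array medians ran from 5.49 to 5.51. In such bulk RNA a change of level per cell and a change in the share of cells with the transcript cannot be told apart.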

How the data were processed

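Gene expression was measured on 6 Affymetrix arrays, 3 vehicle and 3 R1881. The authors deposited 1 log2 value per probe set and array, made with RMA per the submitters' processing notes, a method that subtracts background, equalises the arrays' distributions and merges the probes of a set, so a shift common to all genes would be removed. The RMA version was not stated in what was used here. Deposited values carry 2 decimals. No scanner file was used, and 3 arrays per group limit the precision.

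Names came from the platform's annotation table. Of 49193, 44898 had 1 symbol, 1825 several and 2470 none. The fit used limma 3.58.1 in R 4.3.3 (lmFit, eBayes, two-sided, Benjamini-Hochberg, threshold 0.05), over all probe sets for the members and over 18129 genes, each on its brightest probe set, for the lists. It was also run on simulated data with independent noise and changes added to brighter sets, to check that the code returned those changes. That run does not bear on dim sets, on changes as small as those of the list genes or on likeness between same-numbered arrays. Levels of different probe sets were compared only to pick a gene's brightest set and with the background level. A set was above background where 1 group mean exceeded 4.99. One planned gene list is not reported here. The members, the lists and the choice of tests were made with earlier results of these data known. Named were all members, up to 4 called genes of each list (otherwise the 1 with the smallest p), and the 5 genes nearest to KANK1. Promoter windows are from RefSeq on GRCh38.p14, where all 7 genes had an entry. An exact permutation test of 3 against 3 arrays cannot go below p = 0.10. The groups share replicate numbers. Same-numbered arrays deviated together only weakly (correlations 0.0583 to 0.0921), though all 6 arrays deviated most like the array of their own number. This is a hint from the data and not from the design, and the main fit did not treat them as pairs.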

Additional observations from a re-analysis of the deposited data

How the results depend on the processing

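The count of member probe sets past the threshold was 2 under re-centred or re-normalized arrays, without dim sets, under a trended, robust prior, with array weights and with single-symbol sets only. It was 1 when any 1 array was left out, each time KANK1. It was 0 of 14 without s and x sets, which leaves out both called sets by construction (limma, 1 at an unadjusted p under 0.05). With the replicate number as a replicate block it was 1, the KANK2 call being lost, and all 6 arrays deviated most like the array of their own number, a hint from the data and not from the design. The count of list genes, 9 in the report, was 17 without dim genes, 22 under a trended, robust prior, 1 with the replicate block (EVL), and 0 to 4 when 1 array was left out. The cause of these shifts was not tested. The calls over all genes shifted too. From 438 they rose to 757 without dim genes and to 895 under the trended, robust prior. With 1 array fewer they dropped to between 209 and 270, and with the block to 222. No called member reversed its sign in any of these settings.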
